A study of Homo sapiens with 6 samples.

Results

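The genes examined here were those of the EGFR family and its ligands, taken as the rows of the deposited table that carry 1 of 10 symbols. They were the receptors *EGFR*, *ERBB2*, and *ERBB3*, the ligands *AREG*, *EREG*, *HBEGF*, *TGFA*, *BTC*, and *NRG1*, and the feedback inhibitor *ERRFI1*. All 10 were found among the 29483 genes of the table, and 9 of them entered the test, which took the 13599 genes whose mean FPKM reached 0.5. FPKM gives the reads of a gene per length of the gene and per size of the library, so levels of different genes can be set side by side on this scale. *NRG1* was under that limit in all 6 libraries.

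RNA was sequenced from HK-2 cells, a long-established human line derived from the proximal tubule of the kidney, in 3 control and 3 case libraries. Every culture, control included, spent 7 days in 25 mM HG (high glucose) medium. TEPP-46, an activator of the glycolytic enzyme PKM2, was then given to the case group at 10 µM for 1 day. No library without HG was among the samples, so the comparison concerns the added compound in cells already in HG medium. The study calls its replicates independent and describes them as treated separately. The labels do not state whether they came from separate cultures. The p-values measure the spread between these libraries, which may then be technical. From the FPKM values, by their steps or with annotated gene lengths, 18590404, 17879795, and 17336060 reads were recovered for control replicates 1 to 3. For case replicates 1 to 3, the recovered depth was 16675195, 16010441, and 15328986 reads.

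The label of the cells was set against marker genes. Of 10 proximal tubule markers, 8 were in the table and none reached the limit for testing. Their summed FPKM lay between 0.381 and 0.575 in the 6 libraries, *GGT1* was the most abundant at a control mean of 0.175 FPKM, and the endocytic receptor gene *LRP2* averaged 0.00229 FPKM in the control group and was listed at 0 for every case library. Epithelial markers were abundant, with control means of 344 FPKM for *KRT8*, 352 FPKM for *KRT19*, and 13.8 FPKM for *EPCAM*. The summed FPKM of 4 endothelial markers was at most 0.089, that of 3 distal nephron markers at most 0.046, and that of 3 leukocyte markers at most 0.927. *CD14* made up most of the leukocyte sum, with a control mean of 0.806 FPKM and a case mean of 0.264 FPKM, from 7 to 31 reads per library. It was called downregulated (log2(FC) -1.24, limma adjusted p = 0.0384), but it reached the limit for testing only through the control group. Mesenchyme and fibroblast markers summed to between 91.5 and 162 FPKM, mostly from the vimentin gene *VIM* at a control mean of 94.8 FPKM. The podocyte markers summed to between 11.3 and 23.2 FPKM, mostly from *SYNPO* at a control mean of 20 FPKM. The epithelial cadherin gene *CDH1* averaged 3.42 FPKM in the control group. The cells are therefore described here as an epithelial line that also held *VIM* transcripts. Its defining proximal tubule transcripts were at or near 0.

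Members of the EGFR family are receptor tyrosine kinases that pair on binding of a ligand and pass the signal to the RAS-ERK and PI3K-AKT pathways. ERBB2 has no known ligand of its own, and ERBB3 has a weak kinase and signals through its partners. The ligands are made as membrane-bound precursors and are released by metalloproteases, and the adaptor ERRFI1, also called MIG6, binds active receptors and inhibits them. In the renal tubule, EGFR is known for its part in growth and repair after injury.

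The transcripts with the largest upregulation among the members came from the amphiregulin gene *AREG* (chr4:74445136-74455005, plus strand, GRCh38), which has the epiregulin gene *EREG* (chr4:74365145-74388749, plus strand) as a neighbor. The heparin-binding EGF-like growth factor gene *HBEGF* (chr5:140332843-140346603, minus strand) was the other upregulated ligand gene. The 250 bases before the start site of these 3 genes are shown, since they belong to both upregulated ligands and to the neighbor that did not pass the test. They are RefSeq windows of GRCh38.p14, written 5′ to 3′ on the strand of the gene, at chr4:74444886-74445135, chr4:74364895-74365144, and chr5:140346604-140346853. Capitals mark the letters of a cyclic AMP response element (CRE), TGACGTCA, and of a TATA box, TATAAA.
AREG: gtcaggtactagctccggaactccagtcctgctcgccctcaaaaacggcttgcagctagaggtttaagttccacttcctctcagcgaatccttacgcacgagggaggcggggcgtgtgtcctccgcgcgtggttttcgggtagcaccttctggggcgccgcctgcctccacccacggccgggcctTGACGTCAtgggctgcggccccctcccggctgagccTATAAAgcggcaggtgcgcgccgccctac
EREG: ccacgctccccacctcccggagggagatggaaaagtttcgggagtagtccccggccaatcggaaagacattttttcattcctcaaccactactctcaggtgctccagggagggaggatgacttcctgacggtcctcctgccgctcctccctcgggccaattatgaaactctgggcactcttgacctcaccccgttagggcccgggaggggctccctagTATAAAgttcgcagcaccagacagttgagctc
HBEGF: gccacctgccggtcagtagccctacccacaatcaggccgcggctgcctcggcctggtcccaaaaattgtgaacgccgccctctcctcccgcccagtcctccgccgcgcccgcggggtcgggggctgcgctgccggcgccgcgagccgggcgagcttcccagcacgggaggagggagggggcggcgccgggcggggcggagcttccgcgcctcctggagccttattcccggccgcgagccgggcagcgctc

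The windows of 8 of the 10 members were searched. *NRG1* was left out of the search, and no window was available for *ERBB3*. The letters TGACGTCA are the binding motif of CREB and related factors. Among the members' windows searched, they occurred only in that of *AREG*, at 65 to 58 bases before the start site. Of the 35116 windows in the RefSeq table, 1.65% held them. TATAAA was found in the windows of *AREG*, at 29 to 24 bases before the start, of *EREG*, at 32 to 27 bases, and in 1 of the 2 windows of *EGFR*, against 10.7% of all windows. The AP-1 letters TGANTCA stood in 1 window of *EGFR* and in that of *ERBB2*, and in 6.57% of all windows. The shorter letters TGACG, which are part of the CRE and are not in capitals on their own, were found in the windows of *AREG*, *EREG*, and *TGFA*, and in 21.2% of all windows. None of the 4 motifs was in the window of *HBEGF*, *BTC*, or *ERRFI1*. Both strands were searched, and a match describes the letters of the window only.

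The abundance of the members spanned a wide range in cells not given TEPP-46. In the control group, *AREG* was the most abundant member at 102 ± 2.08 FPKM (SD, n = 3), above 96.8% of the tested genes. It was followed by *ERRFI1* at 57.9 ± 1.43 FPKM, *EREG* at 29.1 ± 1.47 FPKM, and *EGFR* at 19.1 ± 0.455 FPKM. The libraries of these 4 genes did not overlap between neighbors in the order. *ERBB2* at 10.9 ± 0.338 FPKM and *TGFA* at 10.9 ± 1.20 FPKM could not be separated. *HBEGF* came next at 7.32 ± 0.696 FPKM. *ERBB3* at 2.94 ± 0.170 FPKM and *BTC* at 2.93 ± 0.480 FPKM overlapped as well, and *NRG1* was last at 0.195 ± 0.0634 FPKM. In the case group, *HBEGF* at 9.54 ± 0.447 FPKM stood above *ERBB2* at 8.92 ± 1.31 FPKM in the order of means, although the ranges of *HBEGF*, *TGFA*, and *ERBB2* overlapped from 1 to the next.

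**Figure D1:**
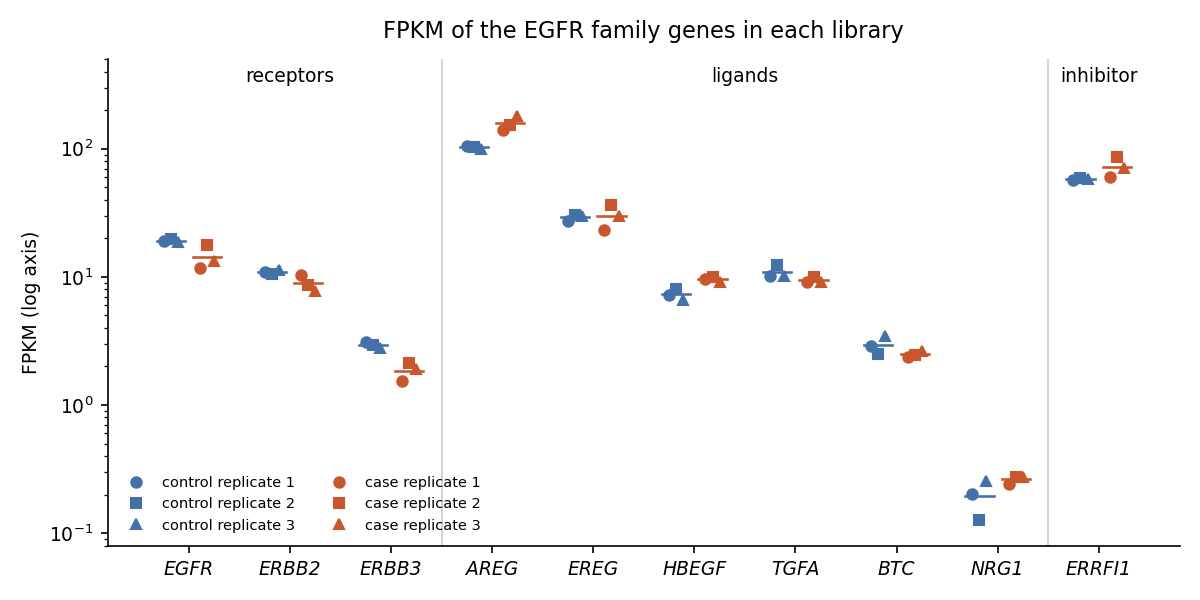
Deposited FPKM (log axis) of the 10 members in the 3 control libraries (blue) and the 3 case libraries (orange), with the replicate given by the shape of the point and the group mean by a line. On this unscaled axis all 3 case libraries lie above the control libraries for *AREG*, *HBEGF*, and *ERRFI1* and below them for *EGFR*, *ERBB2*, *ERBB3*, and *TGFA*.

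Of the 9 members tested, 3 were DE genes at an adjusted p of at most 0.05, *AREG* and *HBEGF* upregulated and *ERBB3* downregulated. This is 33.3% of the members tested, whereas 13.2% of all tested genes were called, 7.34% as upregulated and 5.84% as downregulated. The median log2(FC) was -0.13 over the members tested and 0.00 over all tested genes. The scaled values of the groups did not overlap for 5 of the 9 members, *AREG*, *HBEGF*, *ERRFI1*, *EGFR*, and *ERBB3*, against 39.9% of all tested genes. The adjusted p-values of single genes are from limma, or from voom where named, and were adjusted over all tested genes by the Benjamini-Hochberg method. In RNA of a whole culture, fewer cells of a kind and less RNA per cell cannot be told apart.

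Among the receptors, *ERBB3* (chr12:56076799-56103505), which binds neuregulins, was measured at 3.11, 2.95, and 2.77 FPKM in control replicates 1, 2, and 3. It was at 1.53, 2.14, and 1.91 FPKM in case replicates 1, 2, and 3, from 221 to 502 reads per library. All case libraries were below all control libraries, with case replicate 1 the lowest. The log2(FC) was -0.57 ± 0.13 (SE, n = 3 per group, 95% CI -0.88 to -0.27, limma adjusted p = 0.0312), a fold change of 0.672. The call was lost without control replicate 1, 2, or 3 (limma adjusted p of 0.126, 0.122, and 0.0926) and without case replicate 3 (0.0885), with log2(FC) between -0.62 and -0.53. It was also lost with no filter on low values (limma adjusted p = 0.0801) and with a correction for gene length, where the log2(FC) was -0.35 (limma adjusted p = 0.0656). *ERBB3* overlaps a protein-coding gene without a symbol on the same strand, and the part of this overlap in its counts was not tested.

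*EGFR* (chr7:55019017-55211628), the receptor of AREG, EREG, HBEGF, TGFA, and BTC, was at 19.0, 19.6, and 18.7 FPKM in control replicates 1, 2, and 3, and at 11.8, 17.7, and 13.3 FPKM in case replicates 1, 2, and 3. The groups did not overlap, but case replicate 2 was close to the control libraries while the other 2 were well below them. The log2(FC) of -0.36 ± 0.13 (95% CI -0.65 to -0.07) did not pass the test (limma adjusted p = 0.0909). Without case replicate 2 it was -0.51 and passed (limma adjusted p = 0.0087), and it also passed in voom on the recovered reads (adjusted p = 0.0385). It passed as well on the TPM scale at -0.56 (limma adjusted p = 0.0395), where the median log2(FC) of all tested genes was -0.19. It was closer to 0 without case replicate 1, at -0.26 (limma adjusted p = 0.157), and with a correction for gene length, at -0.14 (limma adjusted p = 0.285). The antisense gene *EGFR-AS1* averaged 0.0352 FPKM.

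*ERBB2* (chr17:39687914-39730426), the preferred partner of the other receptors, was at 10.9, 10.6, and 11.3 FPKM in control replicates 1, 2, and 3, and at 10.3, 8.70, and 7.73 FPKM in case replicates 1, 2, and 3. Although every case value was below the lowest control value before scaling, after it case replicate 1 lay slightly above the control libraries, at 0.05 on the log2 scale against their mean, and the other 2 lay below them, at -0.30 and -0.43. The log2(FC) was -0.23 ± 0.12 (95% CI -0.51 to 0.06, limma adjusted p = 0.243), and -0.36 without case replicate 1, which passed the test (limma adjusted p = 0.0272). It also passed on the TPM scale at -0.42 (limma adjusted p = 0.037). It was -0.12 without case replicate 3 (limma adjusted p = 0.549) and -0.07 with a correction for gene length (limma adjusted p = 0.768). *ERBB2* overlaps *MIEN1* at a mean of 6.43 FPKM and *PGAP3* at 3.05 FPKM on the opposite strand, and the use of strand in the counting is not given in the sources used here. *ERBB4*, the remaining receptor of the family, had 1 read in 1 of the 6 libraries.

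Among the ligands, *AREG* was at 104, 103, and 99.9 FPKM in control replicates 1, 2, and 3, and at 139, 154, and 180 FPKM in case replicates 1, 2, and 3. The lowest case library exceeded the highest control library, and case replicate 3 was the highest of all. The log2(FC) was 0.70 ± 0.10 (SE, n = 3 per group, 95% CI 0.48 to 0.92, limma adjusted p = 0.0101), a fold change of 1.62. By p-value *AREG* was the gene at place 111 of the 13599 tested. Without control replicate 1, 2, or 3, the log2(FC) was 0.71, 0.70, and 0.67, and the limma adjusted p was 0.0544, 0.0611, and 0.0598.

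*HBEGF*, a ligand of EGFR and ERBB4, was at 7.25, 8.04, and 6.65 FPKM in control replicates 1, 2, and 3, and at 9.70, 9.89, and 9.04 FPKM in case replicates 1, 2, and 3. The groups did not overlap, and the case libraries were closer to each other than the control libraries. The log2(FC) was 0.46 ± 0.10 (95% CI 0.23 to 0.69, limma adjusted p = 0.0263), a fold change of 1.37, from 349 to 489 reads per library. The call was lost without control replicate 1, 2, or 3 (limma adjusted p of 0.104, 0.0797, and 0.109) and without case replicate 3 (0.0671), with log2(FC) between 0.39 and 0.52. It was also lost with no filter on low values (limma adjusted p = 0.0619), without an intensity trend (limma adjusted p = 0.0545), and with a correction for gene length, where the log2(FC) was 0.31 (limma adjusted p = 0.0918). On the TPM scale it was 0.26 and did not pass (limma adjusted p = 0.114).

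The other ligands did not pass the test. *EREG* was at 27.5, 30.3, and 29.6 FPKM in control replicates 1, 2, and 3, and at 23.3, 36.4, and 30.0 FPKM in case replicates 1, 2, and 3. Case replicate 1 was the lowest and case replicate 2 the highest of the 6 libraries, so the case group enclosed the control group (log2(FC) 0.09, 95% CI -0.21 to 0.40, limma adjusted p = 0.658). *TGFA*, which encodes transforming growth factor alpha, was between 10.1 and 12.3 FPKM in the control group and between 9.05 and 10.0 FPKM in the case group (log2(FC) -0.13, 95% CI -0.35 to 0.10, limma adjusted p = 0.404). *BTC*, which encodes betacellulin, was between 2.48 and 3.43 FPKM in the control group and between 2.38 and 2.64 FPKM in the case group (log2(FC) -0.14, 95% CI -0.45 to 0.17, limma adjusted p = 0.507). The intervals leave room for changes of either sign in these 3 genes. With 1 library left out, the log2(FC) ran from -0.18 to -0.04 for *TGFA* and from -0.25 to -0.03 for *BTC*.

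*NRG1*, a ligand of ERBB3 and ERBB4, had 43, 26, and 50 reads in the control libraries, in the order of replicates 1 to 3, and 46, 50, and 48 reads in the case libraries. In a fit with no filter on low values its log2(FC) was 0.38 ± 0.29 (limma adjusted p = 0.574). Of the remaining ligand genes of the family, *NRG2* was the 1 tested, at a control mean of 1.84 FPKM and a case mean of 1.62 FPKM (log2(FC) -0.10, limma adjusted p = 0.682). *NRG4* at a control mean of 0.505 FPKM, *EGF* at 0.194 FPKM, and *EPGN* at 0.0833 FPKM were under the limit for testing, and *NRG3* was at 0 in 5 of the 6 libraries. In the fit with no filter, the log2(FC) of *EGF* was -0.52 ± 0.27 and did not pass (limma adjusted p = 0.372).

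Pairs of a called and an uncalled ligand gene were also set side by side within each library, as a description, since the pairs were picked with their values known. The FPKM ratio of *AREG* to *EREG* was 3.77, 3.42, and 3.37 in control replicates 1, 2, and 3, and 5.97, 4.24, and 6.0 in case replicates 1, 2, and 3. The ratio was higher in all 3 case libraries, by 0.60 on the log2 scale, and by 0.38 with a correction for gene length. The ratio of *HBEGF* to *TGFA* was 0.674 ± 0.0305 in control libraries and 1.02 ± 0.0377 in case libraries (SD, n = 3), a difference of 0.59 on the log2 scale, and of 0.42 with the same correction. *AREG* held 66.0% to 68.3% of the summed FPKM of the 6 ligands in control libraries and 72.3% to 77.9% in case libraries. The sum was 152, 157, and 150 FPKM in control replicates 1, 2, and 3, and 184, 213, and 231 FPKM in case replicates 1, 2, and 3. The summed FPKM of the 3 receptors was 33.0, 33.2, and 32.8 in control replicates 1, 2, and 3, and 23.6, 28.5, and 22.9 in case replicates 1, 2, and 3. These sums are of FPKM without further scaling. Ligand sums were higher, and receptor sums lower, in each case library than in any control library. The sums were not corrected for gene length. With that correction, *EGFR* was at -0.20, 0.00, and -0.22 on the log2 scale against the control mean in case replicates 1, 2, and 3. *ERBB2* was at 0.28, -0.24, and -0.25, so the lower receptor sums depend on this choice. Without *AREG*, the ligand sum was 48.0, 53.2, and 50.1 FPKM in the control libraries and 44.8, 59.0, and 51.0 FPKM in the case libraries, and the groups overlapped.

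The feedback inhibitor gene *ERRFI1* (chr1:8004404-8026309) was at 56.5, 59.4, and 58.0 FPKM in control replicates 1, 2, and 3, and at 60.2, 85.6, and 70.4 FPKM in case replicates 1, 2, and 3. The groups did not overlap, with case replicate 1 just above the control libraries. The log2(FC) of 0.38 ± 0.11 (95% CI 0.13 to 0.62) was next to the threshold without passing it (limma adjusted p = 0.0543). It passed without case replicate 1 (log2(FC) 0.48, limma adjusted p = 0.0193) and without case replicate 2 (0.27, adjusted p = 0.0425). It also passed with a limit of 1 FPKM on the mean (limma adjusted p = 0.0451) and in voom on the recovered reads (adjusted p = 0.0217), and on the TPM scale it was 0.18 (limma adjusted p = 0.353).

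**Figure D2:**
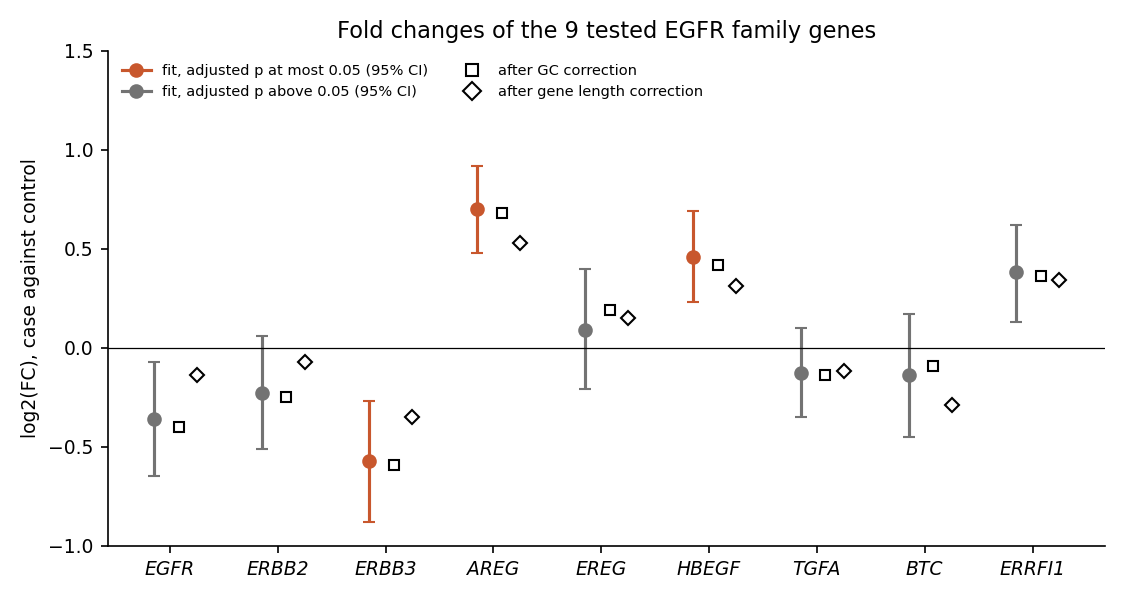
log2(FC) of the case group against the control group for the 9 members tested, with 95% confidence intervals (filled points, orange where the adjusted p was at most 0.05). Open squares and diamonds give the log2(FC) after correction for GC content and for gene length. After the length correction, *AREG* is at 0.53 and *EGFR* at -0.14.

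The libraries also differed by the length and base composition of the genes. The tested genes were cut into 3 equal groups by exon length. Against the control mean, the median log2 value of the shortest group was 0.23, 0.05, and 0.19 in case replicates 1, 2, and 3, and that of the longest group was -0.23, -0.06, and -0.16. For the genes with the lowest GC content it was -0.20, 0.05, and 0.03 in case replicates 1, 2, and 3, and for those with the highest 0.15, -0.10, and -0.05, so case replicate 1 ran opposite to the other 2. The exons of *AREG* cover 1642 bases and those of *HBEGF* 2990 bases, and those of *ERBB3* and *EGFR* cover 11711 and 15941 bases. With a correction for gene length, the log2(FC) of *AREG* was 0.53 and passed (limma adjusted p = 0.0217), and *AREG* was the 1 member called. With a correction for GC content, 5 members were called, with *EGFR* at -0.40 (limma adjusted p = 0.0397) and *ERRFI1* at 0.36 (limma adjusted p = 0.0184) beside the same 3.

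*AREG*, *EREG*, and *BTC* lie in 1 region of chromosome 4, together with a cluster of chemokine genes. Genes within 1000 kb of *AREG* were examined for their position, after their values had been seen. Of 19 protein-coding genes there, 11 were tested. Apart from *AREG*, on which the window was centered, 4 of the 10 tested genes were called, all upregulated, against 13.2% of all tested genes called and 7.34% upregulated. They were the neutrophil-attracting chemokine genes *CXCL8* (log2(FC) 0.59, limma adjusted p = 0.014), *CXCL1* (0.78, adjusted p = 0.00706), *CXCL2* (1.06, adjusted p = 0.00152), and *CXCL3* (1.36, adjusted p = 0.0017). *EREG*, whose start lies 80.0 kb from that of *AREG*, and *CXCL5* and *CXCL6* of the same cluster were not called, with log2(FC) of 0.09, 0.19, and -0.47.

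**Figure D3:**
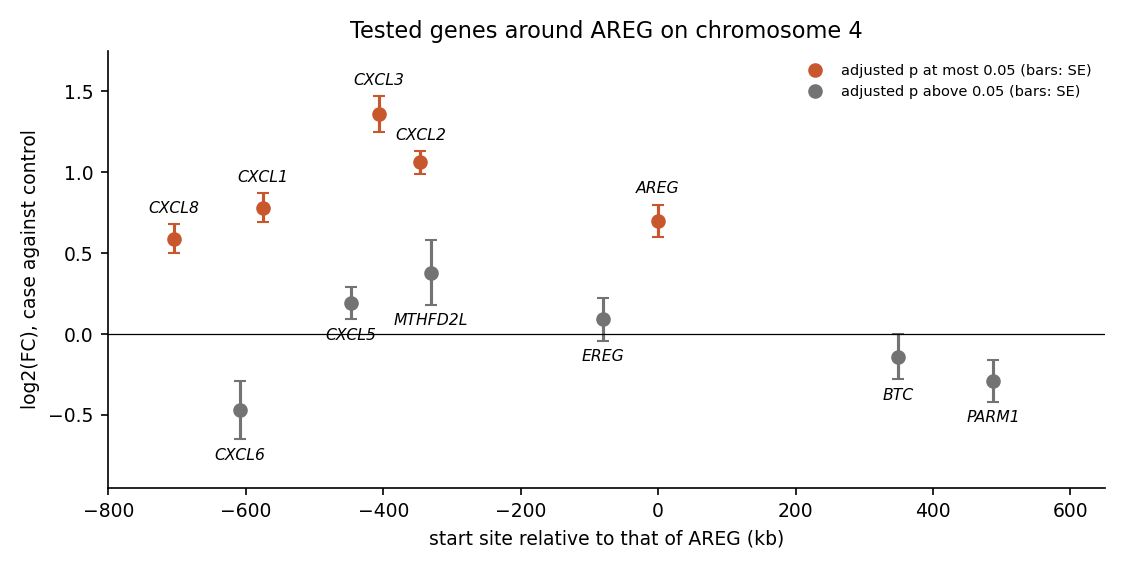
log2(FC) of the case group against the control group with SE for the 11 tested protein-coding genes around *AREG*, by the distance of their start sites from that of *AREG* in kb. Orange points passed an adjusted p of 0.05, and *EREG* at 0.09 stands between *CXCL2* at 1.06 and *AREG* at 0.70.

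Genes linked to the receptors were then described by role. The lists are those of textbook members, chosen with earlier results of these data known. They are given by counts, beside 7.34% of all tested genes upregulated and 5.84% downregulated. The activity of the receptors or of ERK was not tested. Among 16 transcripts known to depend on ERK, the kinase at the end of the RAS pathway, 12 were upregulated and none was downregulated, with a median log2(FC) of 0.52. The ERK phosphatase gene *DUSP6* was at 5.04, 4.38, and 4.21 FPKM in control replicates 1, 2, and 3, and at 9.20, 9.86, and 10.5 FPKM in case replicates 1, 2, and 3, so that each case library was well above the control libraries (log2(FC) 1.18 ± 0.10, limma adjusted p = 0.00197). *SPRY4*, a Sprouty inhibitor of receptor signaling, rose by 1.01 ± 0.13 on the log2 scale (limma adjusted p = 0.00937). The immediate early genes *EGR1* and *IER2* both rose by 0.88, *IER3* by 0.69, *FOS* by 0.60, and *FOSL1* by 0.57. *DUSP5* rose by 0.78, *PHLDA1* by 0.48, *MYC* by 0.45, *SPRY2* by 0.39, and *ETV5* by 0.35. *ETV4* at 0.36 (limma adjusted p = 0.056) and *SPRED1* at 0.14 (limma adjusted p = 0.474) did not pass. With the correction for gene length 10 of the 16 were upregulated, and on the TPM scale 8. Without control replicate 1, 2, or 3 there were 4, 3, and 5, and without case replicate 3 there were 7. In each of these fits with 1 library left out, as in the main fit, 13 of the 16 had an unadjusted limma p under 0.05. With the correction for gene length 14 did, and on the TPM scale 10.

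**Figure D4:**
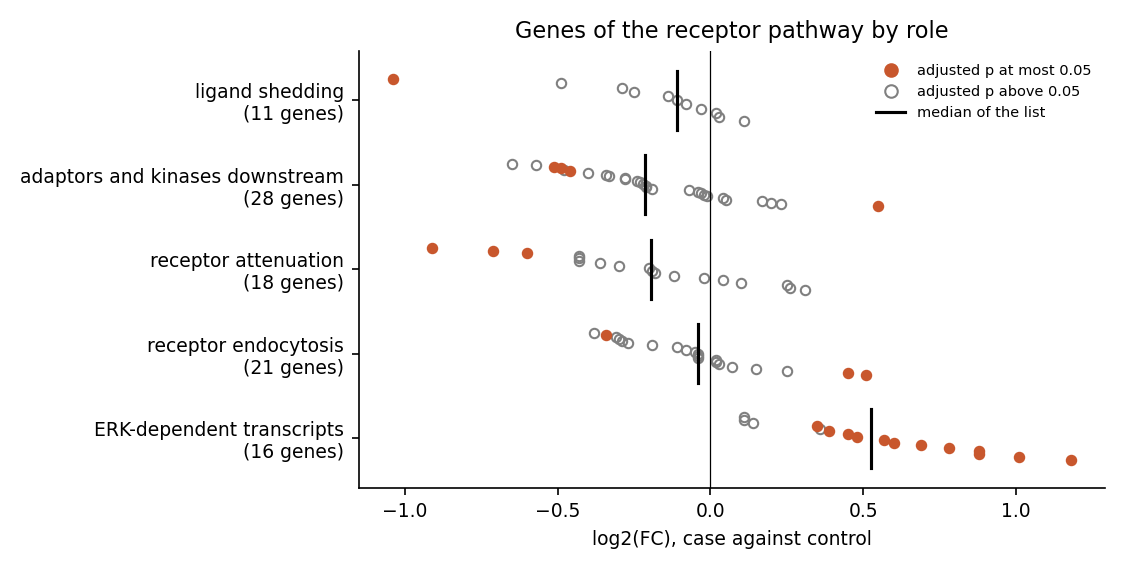
log2(FC) of the case group against the control group for the tested genes of 5 lists, with genes at an adjusted p of at most 0.05 filled and the median of each list as a line. The 12 filled points of the ERK-dependent transcripts all lie above 0, and the median of that list is 0.52 against -0.22 for the adaptors and kinases.

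Genes between the receptor and these transcripts were called in both directions. Of 28 adaptors and kinases tested, the RAS gene *HRAS* was upregulated (log2(FC) 0.55, limma adjusted p = 0.0421). The adaptor gene *SHC1* (-0.46, adjusted p = 0.0448), the phospholipase gene *PLCG1* (-0.49, adjusted p = 0.0212), and the PI3K subunit gene *PIK3CB* (-0.51, adjusted p = 0.0448) were downregulated. The largest values that did not pass were those of the PI3K regulatory subunit gene *PIK3R1* at -0.65 and of *SOS1*, which activates RAS, at -0.57. The median of the list was -0.22, and its share of called genes, 14.3%, was close to the 13.2% of all tested genes. The calls varied with the setting, with 8 downregulated and none upregulated on the TPM scale and 1 downregulated with the correction for gene length. Without control replicate 1, 2, or 3, or without case replicate 3, limma called none of them, with 6, 5, 7, and 6 at an unadjusted p under 0.05. Without case replicate 1, 5 were downregulated and none upregulated, and without case replicate 2, 9 were downregulated and 2 upregulated.

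Of 18 genes of receptor attenuation and its regulation, 3 were downregulated and none upregulated, with a median of -0.20. The ubiquitin ligase gene *CBLC* was at 19.0, 17.1, and 18.7 FPKM in control replicates 1, 2, and 3, and at 9.28, 9.31, and 8.90 FPKM in case replicates 1, 2, and 3, about even within each group and without overlap (log2(FC) -0.91 ± 0.08, limma adjusted p = 0.00223). *CBL*, which encodes the ubiquitin ligase that marks EGFR for degradation, fell by 0.71 (limma adjusted p = 0.0341), and the phosphatase gene *PTPRJ* fell by 0.60 (limma adjusted p = 0.0252). *LRIG1*, a membrane protein gene known to lower EGFR levels, and *SOCS4* were both at -0.43 and did not pass. Without control replicate 1, 2, or 3, or without case replicate 3, limma called 1 gene of this list each time. In these fits 4, 3, 4, and 4 had an unadjusted p under 0.05. Without case replicate 2, 7 were downregulated and 2 upregulated.

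Of 11 genes of ligand shedding, the neuregulin sheddase gene *ADAM19* was downregulated (log2(FC) -1.04 ± 0.10, limma adjusted p = 0.00368). On the TPM scale and without case replicate 2, 3 genes of this list were downregulated. *ADAM10*, a main sheddase of betacellulin and EGF, was at -0.49 (limma adjusted p = 0.122) and *ADAM9* at -0.29 (limma adjusted p = 0.197). Of 21 genes of receptor endocytosis, the clathrin light chain gene *CLTA* (log2(FC) 0.51, limma adjusted p = 0.0159) and the AP-2 adaptor gene *AP2S1* (0.45, adjusted p = 0.0422) were upregulated, and *AP2B1* of the same adaptor was downregulated (-0.34, adjusted p = 0.0497). The clathrin heavy chain gene *CLTC* was at -0.38 (limma adjusted p = 0.0532) and the dynamin gene *DNM2* at -0.31 (limma adjusted p = 0.114). On the TPM scale 5 endocytosis genes were downregulated and 1 upregulated, while with the correction for gene length both upregulated calls stood and *AP2B1* did not pass. Without control replicate 1, 2, or 3, or without case replicate 3, limma called none of the endocytosis genes, with 4, 4, 5, and 4 at an unadjusted p under 0.05. Without case replicate 2, 4 of them were downregulated and 2 upregulated, and without case replicate 1, 2 were downregulated and 1 upregulated.

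Markers of other cell states were set beside these results. The cadherin gene *CDH1* was downregulated (log2(FC) -0.64, limma adjusted p = 0.0156) and the vimentin gene *VIM* upregulated (0.66, adjusted p = 0.0204), whereas the other 5 epithelial markers did not pass the test. Of these, *KRT8* was at -0.27 with no overlap between the groups (limma adjusted p = 0.125), *KRT7* at -0.14 (limma adjusted p = 0.718), *EPCAM* at 0.04, and *KRT18* and *KRT19* both at 0.02. The fibroblast gene *COL1A1* averaged 0.307 FPKM in control libraries and 0.183 FPKM in case libraries, and *COL1A2* was near 0. *PODXL* and *SYNPO* of the podocyte list were both downregulated, each with a log2(FC) of -0.63, while *NPHS1* averaged 0.0543 FPKM in the control group. The part of these markers in the values of the EGFR family was not tested.

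For the 3 called members, the tested genes with the most similar profile over the 6 libraries were listed as a description, by Pearson's r of the scaled log2 values, which all share the difference between the groups. They were *ARL6IP1* (r = 0.9994), *SNRPD3*, and *COPS8* for *AREG*, *TEAD4* (r = 0.995), *TMBIM6*, and *NRSN2-AS1* for *HBEGF*, and *NBPF15* (r = 0.9968) and *ECHDC2* for *ERBB3*.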

How the data were processed

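Libraries were made from HK-2 cells, 3 in the control and 3 in the case group. The deposited values were FPKM. Per the submitters' processing notes and the paper, the authors mapped quality-filtered reads to GRCh38.p13 with HISAT2 2.1.0 and obtained gene counts for them with HTSeq 0.6.0. The annotation, RNA selection, and strand setting are not given in the sources used here. The members and lists were chosen with earlier results of these data known.

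Each library was scaled by its median-of-ratios factor, taken from genes averaging 0.5 FPKM or more, and log2(value + 0.1) was used, so fold changes of low genes are understated. The 13599 genes were tested in R 4.3.3 with limma 3.58.1 (intensity trend, no covariates), with an adjusted p of at most 0.05 as the threshold. The paper tested counts with DESeq2, and these were not analysed here. Whole reads were recovered from the steps of the FPKM values alone for 14436 genes (48.96%) and with annotated exon lengths for 12598 (42.73%), 1561 genes were at 0, and 888 (3.01%) were not resolved. The reads were used for depth and for voom. The procedure was tested on simulated data. Replicates of each group differed by more than sampling noise, with chi-square values per gene from 3.25 to 6.22 between control libraries and from 13.5 to 31.1 between case libraries. The median SD of a gene on the log2 scale was 0.09 in the control and 0.19 in the case group. Symbols and positions came from GENCODE on GRCh38, and windows from RefSeq. The text names every member and every other family gene, each list gene past the threshold, and from each list the 2 largest that were not, the markers, and for each called member the 3 most similar genes, of which 1 is not reported here. Alternatives were other pseudocounts, filters, scalings, and variance estimates, a replicate block, each library left out, and voom. The corrections for GC content and gene length, and factors from all genes above 0, were chosen after seeing the data.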

Additional observations from a re-analysis of the deposited data

How the results depend on the processing

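The numbers of upregulated and downregulated DE genes were 998 and 794, with 3 members and 23 genes of the pathway lists called. With no filter on low values they were 329 and 191, with 1 member and 12 list genes. Without an intensity trend there were 436 and 416, with 14 list genes. On unscaled FPKM (median of all genes -0.08) 662 genes were upregulated, and on the TPM scale 383 and 2387 were up and down. In voom on whole reads 1512 were downregulated and 5 members called. After GC correction there were 1660 and 1542, with 5 members and 35 list genes, and after gene length correction 1 member. With 1 library left out, the numbers ran from 55 to 1813 upregulated, 14 to 1682 downregulated, 0 to 5 members, and 5 to 42 list genes. Without control replicate 1, 2, or 3 limma called none of the members, although 5, 4, and 5 had an unadjusted p under 0.05, and the adjusted p of *AREG* was 0.0544, 0.0611, and 0.0598. Without case replicate 1, 2, or 3, the members called numbered 5, 5, and 1. Over 20 alternatives *AREG* stayed between 0.50 and 0.76 and passed in 17, *HBEGF* was between 0.26 and 0.52 and passed in 12, and *ERBB3* was between -0.77 and -0.35 and passed in 14. *EREG* turned to -0.11 on the TPM scale and to -0.04 without case replicate 2 (-0.04 to 0.24 with 1 library left out), and *SPRED1* to -0.06 on the TPM scale. With a replicate block, 848 genes were upregulated and 762 downregulated, with 4 members and 23 list genes, and *ERRFI1* passed (adjusted p = 0.0493). Deviations of same-numbered libraries correlated at 0.06, 0.10, and -0.05, and those of differently numbered libraries between -0.18 and 0.12. With 3 libraries per group, these values cannot show whether same-numbered libraries were paired. The causes were not tested. With 26 to 50 reads, *NRG1* was too shallow for its change to be judged.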
